A study of Mus musculus with 8 samples.

Results

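Nonproductive receptor rearrangements are joined V and J segments whose CDR3, the stretch that spans the junction, either is out of frame or reads a stop codon, so that no complete receptor chain can be made from them. They were chosen from the clonotype tables as every line whose translated CDR3 carries the mark for a frameshift or for a stop. Of 14428 clonotypes in 8 libraries, 1809 were nonproductive and 12619 were productive. Frameshifts made up 1719 of the nonproductive clonotypes (95.02%) and in-frame stops the other 90. The frame was checked against the sequences, and 0 frameshift CDR3 had a length that is a multiple of 3, whereas 0 of the other CDR3 had a length that is not.

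The cells came from pups aged 1 week, the F1 offspring of BALB/c males and C57BL/6 dams that carry CD11c-DTR, a receptor for diphtheria toxin (DT) driven from the CD11c promoter of dendritic cells (DC). Trafficked maternal cells, of strain C57BL/6 (CD11c-DTR), were sorted from these pups by H2K-b and recipient cells by H2K-d. Uninjected pups received no donor cells. DC control mIUT pups received 5000000 bone marrow mononuclear cells of B6 mice, the maternal strain, by intrauterine transplantation (IUT) on embryonic day 14, and DC control pIUT pups received as many cells of BALB/c mice, the paternal strain. Dams of these DC control groups were given saline. In DC-depleted pIUT the dam was given DT at 5 ng/g on embryonic day 13, before the paternal cells were injected. Uninjected pups were born to dams given either DT or saline, and how they divide between them is not given in the sources used here. All pups share the F1 genotype and both haplotypes, and donor cells carry H2K-b in mIUT and H2K-d in pIUT. For flow cytometry the study defined recipient cells as positive for both haplotypes and B6 donor cells by CD45.1. Whether these gates also kept donor cells out of the cells sorted for sequencing is not given in the sources used here. Pups of a group were pooled into 1 maternal and 1 recipient library, with no replicate libraries, so each comparison of treatments is between libraries and not between conditions.

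V(D)J recombination cuts and joins V, D and J segments in developing lymphocytes. Bases are trimmed from and added to the ends by chance, so many joins leave the reading frame, and a cell that fails on one allele can try the other or another locus. Added bases without a template are known to be few in fetal and neonatal lymphocytes and more frequent in adult ones. A failed join stays in the genome and can still be transcribed, while nonsense-mediated decay removes many transcripts that carry an early stop. The T cell chains are TRA, TRB, TRG and TRD, and the B cell chains are the heavy chain IGH and the light chains IGK and IGL. IGH, TRB and TRD also use a D segment.

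The libraries differed in size and make-up. They held 32 to 5488 clonotypes and 3749 to 348684 receptor reads. Maternal DC control mIUT and recipient uninjected stood apart, with the highest mean clone counts of productive clonotypes, 178 and 479 reads, and with the most genes of the nonsense-mediated decay list at or under 3 counts. In the gene table, values are given as CPM, the count scaled to a library total of 1000000. Ptprc, the leukocyte antigen CD45, ranged from 2.26 CPM in maternal DC-depleted pIUT to 316 in recipient DC control mIUT. The sum of 5 T cell markers ranged from 94.99 to 1869 CPM and that of 4 B cell markers from 25.9 to 6678 CPM. Markers of other cells were also present, with 4 erythroid genes summing to between 92.1 CPM in recipient DC control mIUT and 117759 CPM in maternal DC control pIUT, and 4 hepatocyte genes to between 1.15 CPM in recipient DC control pIUT and 3504 CPM in maternal DC control mIUT. Their part in the shares given here was not tested.

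The sequences below are the nonproductive clonotypes found in the most libraries, with some of the largest of single libraries or chains. They are printed 5′ to 3′ from the first base of the CDR3, in lower case up to the start of the aligned J segment and in capitals from there on. The V and J names carry the CDR3 length in bases at the end. In the library where each was largest, the lowest base quality score within the CDR3 ranged from 11 to 23. For some it was 58 in another library, as for IGLV1-IGLJ1-34 in recipient DC control pIUT. Whether single bases were misread was not tested.
IGLV1-IGLJ1-34b: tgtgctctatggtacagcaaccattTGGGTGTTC
IGLV1-IGLJ1-34: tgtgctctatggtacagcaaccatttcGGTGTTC
IGLV1-IGLJ1-32: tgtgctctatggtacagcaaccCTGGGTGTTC
IGLV1-IGLJ3-32: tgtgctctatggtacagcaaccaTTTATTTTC
TRGV3-TRGJ2-40: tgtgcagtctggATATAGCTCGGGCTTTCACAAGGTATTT
TRGV1-TRGJ2-38: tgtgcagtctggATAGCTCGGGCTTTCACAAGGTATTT
IGKV8-21-IGKJ2-29: tgcaagcaatcttataatcttcCACGTTC
IGKV1-117-IGKJ5-31: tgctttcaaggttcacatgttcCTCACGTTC
TRAV7-5-TRAJ38-46: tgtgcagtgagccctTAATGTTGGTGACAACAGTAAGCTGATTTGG
TRBV31-TRBJ1-4-41: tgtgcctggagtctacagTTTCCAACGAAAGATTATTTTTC

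The most widespread of them was IGLV1-IGLJ1-34b, a lambda light chain join found in 5 libraries. Its clone count, meaning the reads that MiXCR counted for it, was 1456 in maternal uninjected, 252 in recipient uninjected, 71 in recipient DC-depleted pIUT, 4 in maternal DC-depleted pIUT and 10 in recipient DC control pIUT, and it was not found in the other libraries. In the maternal uninjected library it differed by 1 base in length from a productive IGLV1-IGLJ1 clonotype of 33 bases with a clone count of 3962, shown next.
productive IGLV1-IGLJ1: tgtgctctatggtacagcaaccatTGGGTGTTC
productive IGLV1-IGLJ3: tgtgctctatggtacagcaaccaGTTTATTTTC
The clonotype IGLV1-IGLJ3-32 was 1 base shorter than the productive IGLV1-IGLJ3 sequence, with 696 against 1506 reads in the maternal uninjected library, and also had 29 reads in recipient DC-depleted pIUT, 15 in recipient DC control pIUT and 3 in recipient DC control mIUT. For IGLV1-IGLJ1-32 the clone count was higher in recipient uninjected (595) than in maternal uninjected (192), and 2 and 1 reads were found in recipient DC control mIUT and recipient DC-depleted pIUT. IGLV1-IGLJ1-34 likewise had 560 reads in recipient uninjected, 79 in maternal uninjected, 13 in recipient DC-depleted pIUT and 11 in recipient DC control pIUT. In GRCm39, Iglv1 lies at chr16:18903767-18904250 on the minus strand, with Iglj1 at chr16:18881975-18882012 and Iglj3 at chr16:18885791-18885828.

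The TRG sequences are gamma chain joins with no added bases, in which the aligned ends of V and J share 3 bases. The CDR3 of TRGV3-TRGJ2-40 was found in 4 libraries, with 23 reads in its larger line in maternal DC-depleted pIUT. The same bases were also listed under TRGV1, and over both names the clone count was 150 in recipient DC-depleted pIUT, 84 in recipient DC control pIUT, 25 in maternal DC-depleted pIUT and 4 in recipient DC control mIUT. The CDR3 of TRGV1-TRGJ2-38 gave 138 reads in recipient DC control pIUT, 126 in recipient DC-depleted pIUT and 27 in recipient DC control mIUT over both names, and was not found in the other 5 libraries. The V call within this family is uncertain, since 83 of the 158 clonotypes called TRGV3-TRGJ2 had another V hit of the family and 17 of the 20 called TRGV1-TRGJ2 had a CDR3 that was also listed under another V segment. Trgv3 lies at chr13:19427015-19427471 (plus strand), Trgv1 at chr13:19524159-19524624 (plus strand) and Trgj2 at chr13:19495415-19495474 (minus strand) in GRCm39.

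The largest nonproductive clonotypes of the smaller libraries were found in few other libraries. IGKV8-21-IGKJ2-29, a kappa light chain join, had 847 reads in maternal DC control mIUT, which is 10.1% of all receptor reads of that library, and 0 elsewhere. Its lowest base quality score was 16, and the median of that library was 17.5 for nonproductive and 18 for productive clonotypes. IGKV1-117-IGKJ5-31 had 732 reads in recipient uninjected (1.10% of its reads) and 27 in maternal uninjected, and its bases were also listed under another V segment with 15 reads in recipient DC control pIUT. The largest alpha chain member, TRAV7-5-TRAJ38-46, had 371 reads in recipient uninjected, and the largest beta chain member, TRBV31-TRBJ1-4-41, had 179 reads in maternal DC control mIUT. For IGH and TRD the largest were IGHV7-1-IGHJ4-46 with 72 reads in maternal DC control pIUT and TRDV2-2-TRAJ49-47 with 18 reads in maternal uninjected. In maternal DC control pIUT the largest was IGKV4-69-IGKJ1-35, with 93 reads. Stop clonotypes were smaller. The largest, chosen after its value was seen, was IGKV6-15-IGKJ5-30 in maternal uninjected with 53 reads, shown here with the stop in capitals.
IGKV6-15-IGKJ5-30: tgtcagcaatataacagcTAGctcacgttc

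Nonproductive rearrangements made up a similar share of the clonotypes in 6 of the 8 libraries, those with at least 100 clonotypes. The share was 13.03% in maternal uninjected (577 of 4429 clonotypes, 95% Clopper-Pearson interval 12.05% to 14.05%), 11.1% in maternal DC-depleted pIUT (61 of 552, 8.56% to 13.97%), 12.8% in recipient uninjected (19 of 148, 7.91% to 19.3%), 10.5% in recipient DC control mIUT (70 of 666, 8.29% to 13.1%), 12.4% in recipient DC control pIUT (683 of 5488, 11.6% to 13.3%) and 12.5% in recipient DC-depleted pIUT (382 of 3064, 11.3% to 13.7%). The intervals of these libraries overlap. Without the nonproductive clonotypes 1 edit from a productive one with more reads, maternal uninjected went from the highest of the 6 to the lowest, at 7.78% against 9.07% to 10.4% in the other libraries. Productive clonotypes with such a neighbour were kept, so no share could rise. Such neighbours were most frequent in maternal uninjected in both classes, with 43.7% of nonproductive and 22.3% of productive clonotypes. The change of rank therefore does not show a lower share there. Maternal DC control mIUT stood higher at 24.5% (12 of 49, 13.3% to 38.9%), and maternal DC control pIUT gave 15.6% (5 of 32, 5.28% to 32.8%). The median over the 8 libraries was 12.7%, with an SD of 4.48 percentage points. Intervals cover counting error only, since the reads carry no molecular identifiers.

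Of the receptor reads, the nonproductive clonotypes took a smaller share than of the clonotypes in every library. Their share of the clone count was 4.98% of 348684 reads in maternal uninjected, 21.3% of 8376 in maternal DC control mIUT, 6.54% of 5537 in maternal DC-depleted pIUT and 7.90% of 3749 in maternal DC control pIUT. Among recipient cells it was 7.60% of 66848 reads in uninjected pups, 9.92% of 4043 in DC control mIUT, 7.64% of 48175 in DC control pIUT and 10.9% of 18579 in DC-depleted pIUT. The median was 7.77%. The value of maternal DC control mIUT rested in part on the 847 reads of IGKV8-21-IGKJ2-29, and without that clonotype it was 12.5%. In a pooled library, fewer cells with a rearrangement and less receptor RNA per cell cannot be told apart.

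**Figure D1:**
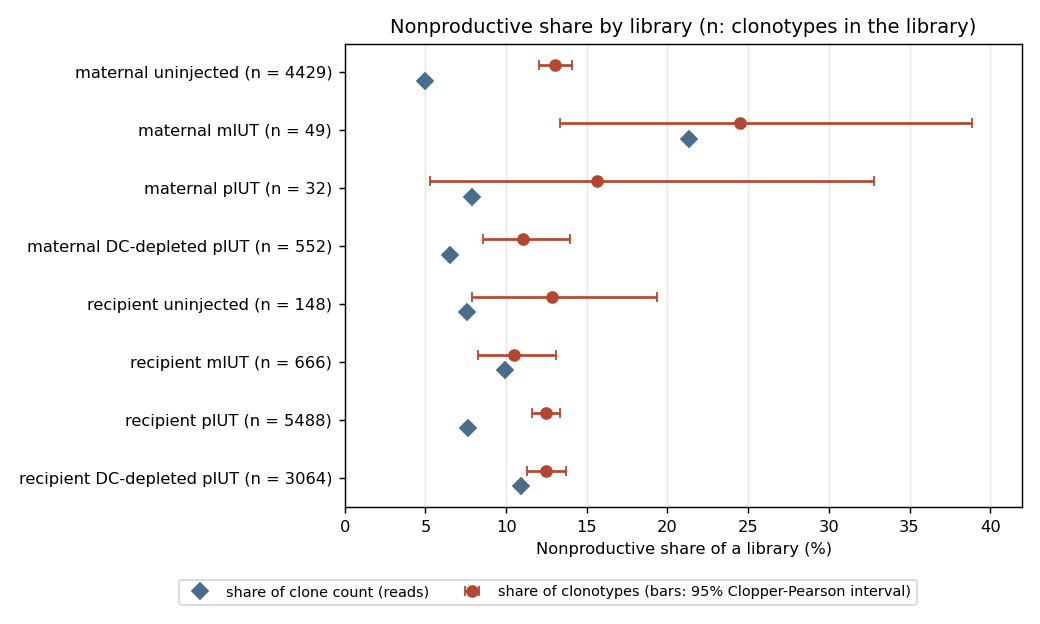
Nonproductive share of each library in percent, as a share of clonotypes (circles, with 95% Clopper-Pearson intervals) and of the clone count (diamonds). Maternal DC control mIUT (49 clonotypes) and maternal DC control pIUT (32) have the widest intervals, and each diamond lies to the left of its circle; mIUT and pIUT in the plot are the DC control groups.

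The comparisons of the study set IUT against no injection, DC depletion against DC control, and maternal against recipient cells. Maternal DC control mIUT exceeded maternal uninjected by 11.5 percentage points (Newcombe 95% interval 1.52 to 25.1) and recipient DC control mIUT by 13.98 points (3.77 to 27.7). In the other 10 of these 12 comparisons the interval of the difference held 0. Against recipient uninjected, which held 148 clonotypes, the differences in recipient cells were -2.33 points for DC control mIUT (-9.01 to 2.82), -0.39 for DC control pIUT (-6.79 to 4.16) and -0.37 for DC-depleted pIUT (-6.81 to 4.26). Maternal DC-depleted pIUT (552 clonotypes) differed from maternal uninjected (4429) by -1.98 points (-4.54 to 1.07). Between recipient DC-depleted pIUT and recipient DC control pIUT the difference was 0.02 points (-1.42 to 1.50). Over all libraries the mean share was 16.05% ± 5.93 (SD, 4 maternal libraries) and 12.1% ± 1.05 (SD, 4 recipient libraries), a difference of 3.98 points (two-sided exact permutation test over libraries, p = 0.2, smallest possible p 0.0286). The libraries of an origin differ in treatment and are not replicates, and maternal and recipient libraries of a treatment came from the same pups. In the 6 libraries with at least 100 clonotypes the difference was -0.03 points, and without maternal DC-depleted pIUT it was 5.65 points (p = 0.0286, exact permutation test of 3 against 4).

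The share differed widely between chains. IGL and TRG were mostly nonproductive, with 113 of 190 IGL clonotypes (59.5%, 52.1% to 66.5%) and 191 of 338 TRG clonotypes (56.5%, 51.0% to 61.9%) over the 8 libraries together. For IGK the share was 19.8% (506 of 2561, 18.2% to 21.4%), for TRA 19.2% (249 of 1298, 17.1% to 21.4%) and for TRD 12.3% (25 of 203, 8.13% to 17.6%). The chains with the lowest shares were TRB at 8.002% (534 of 6673, 7.36% to 8.68%) and IGH at 6.03% (191 of 3165, 5.23% to 6.92%). IGL and TRG held 16.8% of all nonproductive clonotypes but 3.66% of all clonotypes, and the other 5 chains together were 10.8% nonproductive. The intervals of the chains treat pooled clonotypes as independent, though some were found in several libraries. Among libraries with at least 10 clonotypes of the chain, IGK ran from 7.46% to 46.2% and TRG from 26.7% to 63.0%. The same limit holds for the pooled intervals given below for V segments, reading frames and clone counts. Of the 1298 TRA clonotypes, 231 joined a TRAV segment to a TRDJ segment, as segments named for both loci can. Their nonproductive share was 19.5%, and that of the 1067 others was 19.1%.

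IGL and TRG stood above the other chains in nearly every library that could be compared. Among libraries with at least 10 IGL clonotypes, the IGL share was 62.5% in maternal uninjected, 6 of 10 in recipient uninjected, 53.8% in recipient DC control mIUT, 56.0% in recipient DC control pIUT and 63.3% in recipient DC-depleted pIUT. It exceeded the share of the other 5 chains of the same library (neither IGL nor TRG) by 45.0 to 53.6 percentage points, and the interval of each difference lay above 0. The TRG share was 42.9% in recipient DC control mIUT, 44.4% in maternal DC-depleted pIUT, 63.0% in recipient DC control pIUT and 57.0% in recipient DC-depleted pIUT, and exceeded the other 5 chains by 34.3 to 52.0 points in these libraries. In maternal uninjected only 15 TRG clonotypes were found, with a share of 26.7%, and the interval of the difference held 0 (-0.92 to 40.2 points). IGH ranged from 0 of 12 clonotypes in maternal DC control mIUT, which allows a share of up to 25% by the limit of 3 clonotypes and 26.5% by the Clopper-Pearson interval, to 9.09% of 22 in maternal DC-depleted pIUT.

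**Figure D2:**
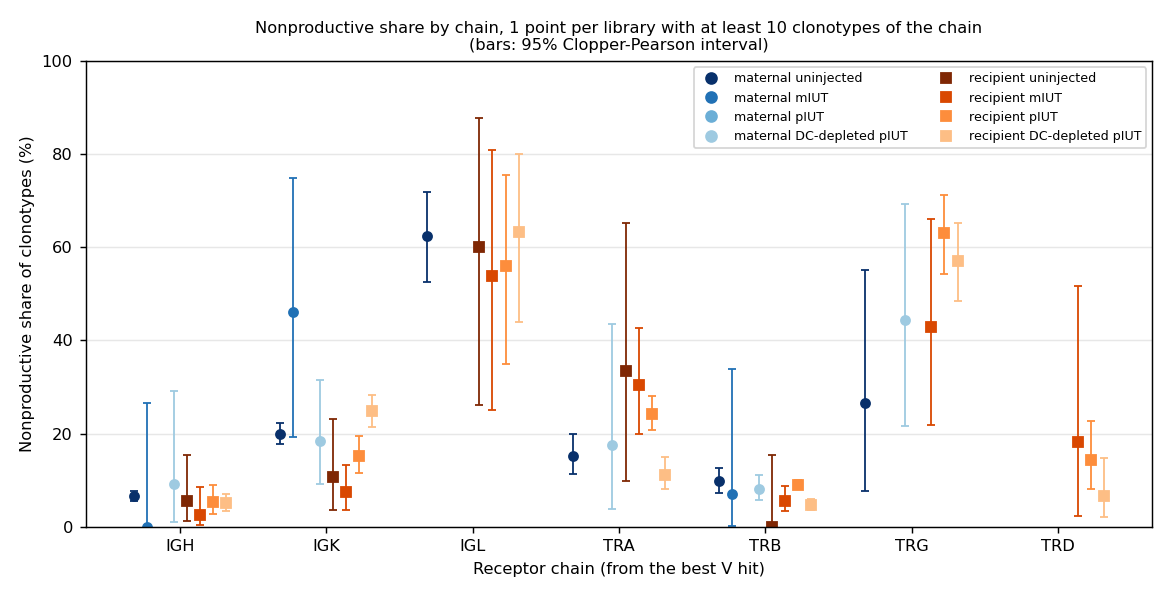
Nonproductive share of clonotypes in percent by receptor chain, with 1 point per library that had at least 10 clonotypes of the chain and 95% Clopper-Pearson intervals (circles maternal, squares recipient). The IGL points lie between 53.8% and 63.3%, while all TRB points lie under 10%.

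Beneath the equal totals of recipient DC-depleted pIUT and recipient DC control pIUT, single chains differed in opposite directions. IGK was higher with DC depletion, at 24.8% of 606 clonotypes against 15.2% of 341 (difference 9.50 points, 4.18 to 14.5). TRA was lower, at 11.1% of 341 against 24.2% of 561 (-13.1 points, -17.8 to -8.04), and TRB was lower, at 4.64% of 1229 against 9.02% of 4101 (-4.38 points, -5.77 to -2.82). For IGH, IGL, TRG and TRD the interval held 0. These values compare 2 libraries, and counting error is the only error they carry. With a clone count of at least 2 the TRB difference was -2.81 points, and without the nonproductive clonotypes that lie 1 edit from a larger productive one it was -2.42. In IGK, 55 of the 150 nonproductive clonotypes with DC depletion and 16 of the 52 in DC control lay 1 edit from a larger productive one. Leaving these out narrows the IGK difference as well. Of 43 comparisons within chains, 8 had an interval without 0, and IGK of maternal DC control mIUT was among them, with 6 of 13 clonotypes nonproductive (46.2%) against 19.96% of 1358 in maternal uninjected.

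Nonproductive clonotypes had fewer reads than productive clonotypes of the same chain in 6 of 7 libraries. The log2 ratio of the mean clone count, taken within each chain and averaged with the number of nonproductive clonotypes as weight, was -2.36 in maternal uninjected, -1.15 in recipient uninjected, -0.98 in maternal DC-depleted pIUT, -0.92 in recipient DC control pIUT, -0.90 in recipient DC-depleted pIUT, -0.17 in recipient DC control mIUT and 0.38 in maternal DC control mIUT. The values of maternal DC control mIUT and recipient uninjected rest on IGK alone, with 6 and 5 nonproductive clonotypes. In maternal DC control mIUT, IGKV8-21-IGKJ2-29 held 847 of the 1449 nonproductive IGK reads. Maternal DC control pIUT had no chain with 5 clonotypes of each class. The mean was -0.87 ± 0.86 (SD, n = 7 libraries; two-sided exact sign-change permutation test, p = 0.0469, and 0.1 after Benjamini-Hochberg adjustment over 8 tests). Hence the difference did not pass the 0.05 threshold after adjustment. With chains ignored and all 8 libraries it was -0.70, with an adjusted p of 0.0312 over the 4 tests of that alternative and of 0.0625 when the 4 tests of IGK are counted with them.

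The gap also differed by chain. With the 8 libraries added together, the mean clone count was 4.91 reads for nonproductive and 22.9 for productive IGH clonotypes, 25.4 against 142 for IGK, 87.8 against 313 for IGL, 5.11 against 11.6 for TRB and 7.90 against 15.3 for TRG. For TRA it was 11.7 against 12.5, over libraries of very different depth. Within libraries, the TRA log2 ratio was -0.40 in maternal uninjected, -0.37 in recipient DC-depleted pIUT, -0.31 in recipient DC control pIUT and 0.11 in recipient DC control mIUT, with a mean of -0.24. In the other chains, nonproductive TRB clonotypes had the lower mean in 5 of 5 libraries (log2 ratio -1.59 to -0.25) and TRG clonotypes in 4 of 4 (-1.13 to -0.25). IGK gave -0.90 ± 1.05 (SD, n = 7 libraries, lower in 6), with p = 0.0469 (exact permutation) and an adjusted p of 0.1. Other chains were below the 6 libraries set for a test. For IGH the log2 ratio was -2.18 in maternal uninjected, -1.37 in recipient DC control pIUT and -0.49 in recipient DC-depleted pIUT.

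With the libraries added together, which differ in their clone counts, the nonproductive share was lower at higher clone counts. It was 21.5% of the 1717 clonotypes with 1 read (19.6% to 23.5%), 17.1% of those with 2 to 4 reads, 9.56% with 5 to 19, 9.29% with 20 to 99 and 6.93% of the 635 with 100 or more (5.08% to 9.19%). In recipient DC control pIUT it went from 27.7% at 1 read to 2.81% at 20 to 99 reads. In maternal uninjected it was 18.1% at 1 read, highest at 2 to 4 reads (25.5%) and 5.17% at 100 or more. Maternal DC-depleted pIUT had 36.8% at 1 read, 18 of 72 clonotypes at 2 to 4, 6.47% at 5 to 19 and 3 of 40 at 20 to 99. Only in recipient DC control pIUT was the share lower at each step, and each other library had at least 1 step at which it was higher. Recipient uninjected had 18.2% at 1 read, 22.2% at 2 to 4, 5.26% at 5 to 19, 1 of 4 clonotypes at 20 to 99 and 11.7% at 100 or more, and maternal DC control mIUT had 1 of 8 clonotypes at 1 read and 6 of 31 at 100 or more. Maternal DC control pIUT had 0 of 2 at 1 read, 4 of 15 at 20 to 99 and 0 of 10 at 100 or more, and recipient DC control mIUT went from 19.1% at 1 read to 8.36% at 5 to 19, with 2 of 9 at 20 to 99. In recipient DC-depleted pIUT it went from 17.3% at 1 read to 6.59% at 20 to 99 reads, with 2 of 8 clonotypes nonproductive at 100 or more.

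**Figure D3:**
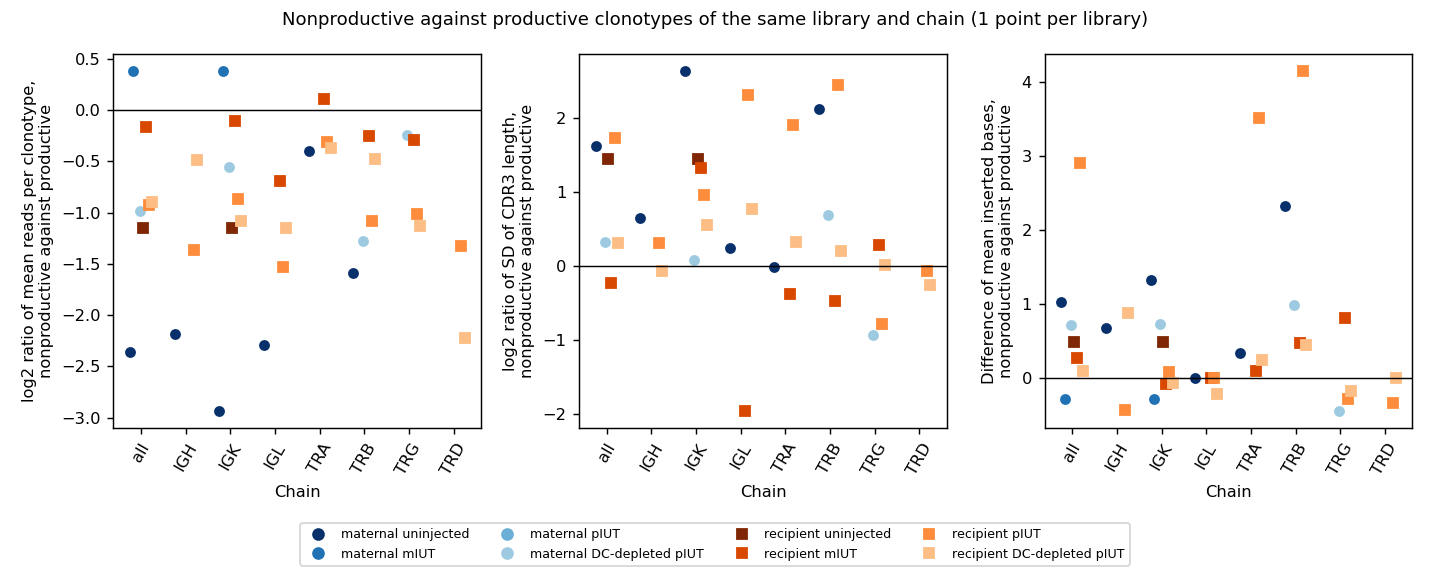
Nonproductive against productive clonotypes of the same library, for all chains and for each chain, as the log2 ratio of mean reads per clonotype, the log2 ratio of the SD of CDR3 length, and the difference of mean inserted bases. Each point is a library with at least 5 clonotypes of each class, and the line marks no difference; for reads, 1 of the 7 points for all chains, maternal DC control mIUT, lies above it.

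The medians of CDR3 length lay within 2 bases of each other in every chain, at 41 bases for nonproductive and 39 for productive TRB clonotypes, 47 and 45 for TRD, 43 and 42 for TRA, 40 and 39 for IGH, 34 and 33 for IGL, 32 and 33 for IGK and 41 and 42 for TRG. The most frequent nonproductive lengths stood on either side of the productive peaks. The choice of the classes largely fixes this, since a frameshift cannot have a length that is a multiple of 3. The most frequent productive length was 33 bases in IGK (76.8% of clonotypes) and in IGL (79.2%), whereas nonproductive IGK clonotypes were mostly of 32 (23.9%), 35 (20.2%) and 34 bases (18.2%) and nonproductive IGL clonotypes of 34 (33.6%), 32 (23.0%) and 31 bases (15.04%). In TRB productive clonotypes peaked at 42 bases (26.2%) and 39 bases (25.8%), and nonproductive clonotypes at 41 (13.9%) and 43 bases (10.7%). The frameshifts split about evenly between lengths that are 1 base over a multiple of 3 (840) and 2 bases over (879). IGL leaned to the former with 63.7% (54.1% to 72.6%) and TRA with 58.9% (52.5% to 65.1%), whereas IGK leaned to the latter, with 43.4% in the former class (38.99% to 47.97%), and so did IGH with 41.9% (34.1% to 49.9%). The IGH frameshifts were 67 at 1 base over and 93 at 2 bases over. Of these, 14 of the former and 58 of the latter lay 1 base from a productive clonotype with more reads. Without those neighbours the IGH lean ran the other way.

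The mean length differed in opposite directions between chains. Nonproductive clonotypes were shorter in IGK in 6 of 7 libraries (by a mean difference of -0.60 bases, exact permutation p = 0.141, adjusted 0.188), whereas they were longer in TRB in 4 of 5 (1.62 bases) and in TRA in 3 of 4 (1.40 bases), which were too few libraries for a test. Recipient DC control pIUT gave 4.55 bases in TRB and 4.67 in TRA, and without it the means were 0.89 and 0.31 bases. With T cell chains alone the difference was 1.24 bases and with B cell chains alone it was -0.67. Over all chains it was 0.17 ± 1.75 bases (SD, n = 7 libraries, exact permutation p = 0.859, adjusted 0.859), and it was -0.37 without recipient DC control pIUT. The spread of length was larger for nonproductive clonotypes in 5 of 6 libraries, with a mean log2 ratio of the SD of 0.87 ± 0.83 (SD over 6 libraries). It is given as a description with no test, because a frameshift cannot have a length that is a multiple of 3, so the choice of the classes itself widens the nonproductive lengths where the productive ones sit at 1 value. In IGK, with most productive clonotypes at 33 bases, it was larger in 6 of 6 libraries (1.16 ± 0.88). With the interquartile range in place of the SD, the ratio over all chains was 0.10. Maternal DC control mIUT had no value, since all its productive IGK clonotypes had the same length. Part of the spread lay in very long sequences. All 18 CDR3 over 90 bases were nonproductive, 14 of them in recipient DC control pIUT and 13 of chain TRB, with at most 6 reads each, and the longest was 252 bases against 78 for the longest productive CDR3. With CDR3 of 21 to 90 bases the log2 ratio was 0.45.

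**Figure D4:**
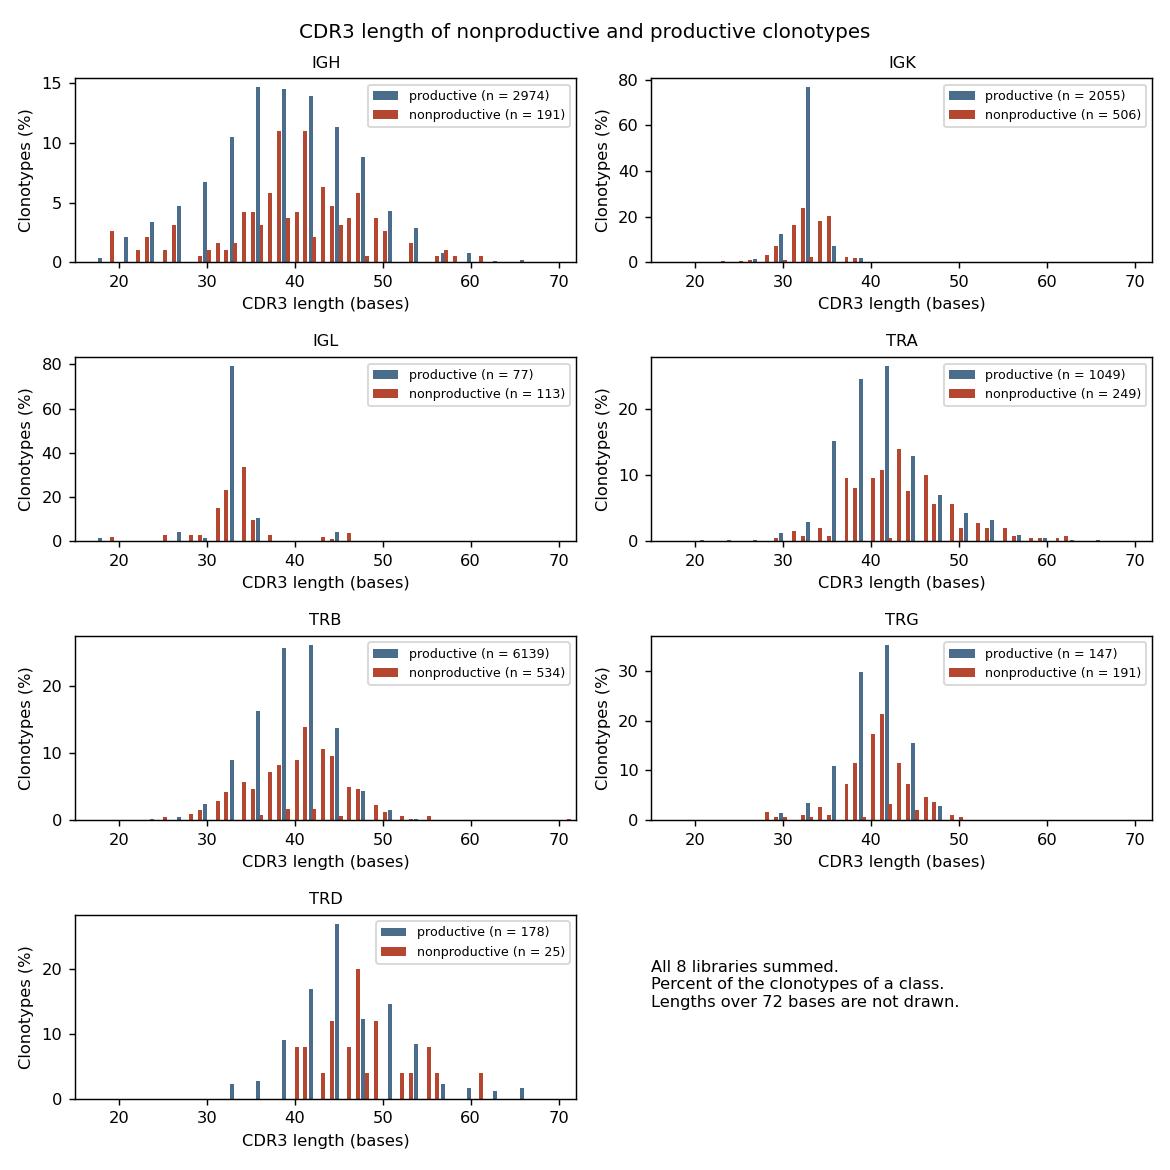
Percent of clonotypes by CDR3 length in bases for productive (blue) and nonproductive (red) clonotypes of each chain, summed over the 8 libraries, with the few longest left out. Productive lengths stand 3 bases apart, and nonproductive lengths mostly fill the places between them, as around 33 bases in IGK and IGL. The choice of the classes by reading frame largely fixes this pattern.

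Inserted bases at the junction, those between V and J that no D segment covers, were more numerous in nonproductive clonotypes in 6 of 7 libraries, by 0.74 ± 1.04 bases within chains (SD, n = 7, exact permutation p = 0.0625, adjusted 0.1). Recipient DC control pIUT gave the largest difference, 2.91 bases, and without it the mean was 0.38. With CDR3 of 21 to 90 bases the mean was 0.24. With medians in place of means the difference was -0.0188. For TRB, the mean number of inserted bases was higher in nonproductive clonotypes in 5 of 5 libraries, with 5.81 against 3.49 in maternal uninjected, 5.95 against 1.80 in recipient DC control pIUT, 2.57 against 1.59 in maternal DC-depleted pIUT, 1.53 against 1.06 in recipient DC control mIUT and 1.84 against 1.40 in recipient DC-depleted pIUT. The TRB medians were 3.5 and 3 bases in maternal uninjected and 1.5 and 1 in recipient DC control pIUT, which held 14 of the 18 CDR3 over 90 bases, and they were equal in the other 3 libraries. In the light chains most joins had no inserted base, and the V and J alignments overlapped in 56.1% of nonproductive and 43.3% of productive IGK clonotypes and in 56.6% and 59.7% of IGL clonotypes.

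Among productive IGH clonotypes the inserted bases set the uninjected libraries apart, with means of 6.17 in maternal and 7.35 in recipient cells against 0.17 to 1.28 in the 6 IUT libraries. Nonproductive IGH clonotypes had a mean of 6.85 inserted bases in maternal uninjected (139 clonotypes) against 0.67 in recipient DC control pIUT (12) and 2.16 in recipient DC-depleted pIUT (32). The other libraries had at most 3, with a mean of 5.33 in recipient uninjected (3) and 2.5 in recipient DC control mIUT (2). Of the nonproductive IGH clonotypes, 57.6% in maternal uninjected and 3 of 3 in recipient uninjected were 1 edit from a productive one with more reads, so the classes are not independent. Which cells these IGH joins came from was not tested.

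V segments differed over the whole range. Among the 60 V segments with at least 50 clonotypes the median share was 7.89%. The 5 highest were TRGV3 with 107 of 165 clonotypes (64.8%, 57.0% to 72.1%), IGLV1 with 81 of 134 (60.4%, 51.6% to 68.8%), TRGV4 with 51 of 91 (56.0%, 45.2% to 66.4%), TRAV15-2-DV6-2 with 20 of 52 (38.5%, 25.3% to 53.0%) and IGKV1-135 with 24 of 75 (32.0%, 21.7% to 43.8%). The 5 lowest were all IGH segments. They were IGHV5-4 with 0 of 68 clonotypes (upper end of the Clopper-Pearson interval 5.28%, and 4.41% if 3 clonotypes are taken as the limit that a count of 0 allows), IGHV1-53 with 1 of 66 (1.52%), IGHV1-55 with 1 of 55 (1.82%), IGHV5-6 with 4 of 145 (2.76%) and IGHV1-82 with 2 of 72 (2.78%). Most clonotypes of IGHV1-53, IGHV1-55 and IGHV1-82 came from maternal uninjected, and without it the share of IGHV1-55 was 14.3% and that of IGHV1-53 and IGHV1-82 was 0. In GRCm39, Trgv4 lies at chr13:19369144-19369676, Trav15-2-dv6-2 at chr14:53886861-53887451 and Igkv1-135 at chr6:67586697-67587492, all on the plus strand, and Ighv5-4 lies at chr12:113561066-113561597 on the minus strand.

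By library, TRGV3 was nonproductive in 44 of 67 clonotypes in recipient DC control pIUT, 46 of 69 in recipient DC-depleted pIUT, 5 of 10 in recipient DC control mIUT, 5 of 7 in maternal DC-depleted pIUT, 4 of 5 in maternal DC control mIUT and 3 of 7 in maternal uninjected. IGLV1 was nonproductive in 39 of 62 clonotypes in maternal uninjected, 17 of 27 in recipient DC-depleted pIUT, 12 of 20 in recipient DC control pIUT, 7 of 11 in recipient DC control mIUT, 4 of 6 in recipient uninjected, 2 of 6 in maternal DC-depleted pIUT and 0 of 2 in maternal DC control mIUT. These segments thus kept a share of 50% or more in all libraries with at least 10 of their clonotypes. Of the reads, nonproductive clonotypes took 65.2% for TRGV3 and 34.3% for IGLV1. Most IGLV1 reads (17956 of 21298) came from maternal uninjected, where the share was 30.5%, and it ran from 0 of 497 reads in maternal DC control mIUT to 79.6% in recipient uninjected. TRAV15-2-DV6-2, a segment named for both loci, was nearly always joined to TRDJ1, with 18 of 48 such clonotypes nonproductive. IGKV1-135 varied more among the 3 libraries with at least 10 of its clonotypes, from 3 of 15 in recipient DC control pIUT to 7 of 16 in recipient DC-depleted pIUT, and its nonproductive clonotypes held 7.25% of its reads.

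**Figure D5:**
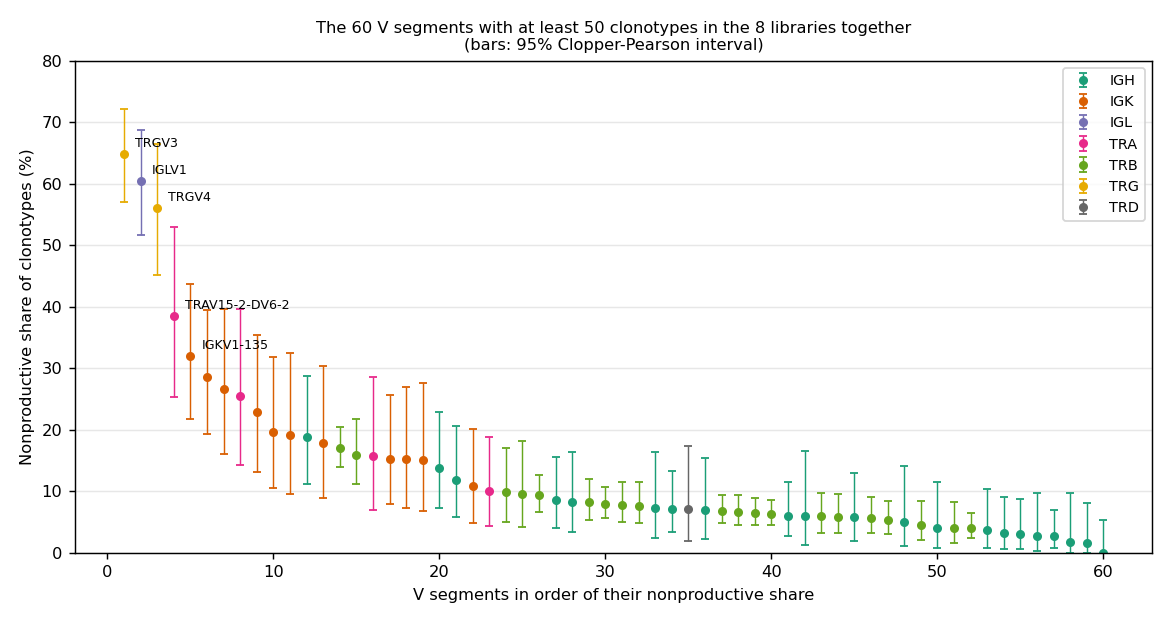
Nonproductive share of clonotypes in percent for the 60 V segments with at least 50 clonotypes in the 8 libraries together, in falling order and coloured by chain, with 95% Clopper-Pearson intervals. The TRG and IGL segments TRGV3, IGLV1 and TRGV4 stand above 50%, and the right end is made up of IGH and TRB segments.

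J segments followed the chains. TRGJ2 was nonproductive in 116 of 178 clonotypes (65.2%), IGLJ3 in 35 of 54 (64.8%), IGLJ1 in 54 of 93 (58.1%) and TRGJ1 in 69 of 143 (48.3%), whereas the next of the 31 J segments with at least 50 clonotypes, IGKJ1, stood at 21.98% of 787. Among IGH constant regions, clonotypes joined to IGHM were nonproductive in 5.55% (145 nonproductive and 2466 productive) and those joined to IGHD in 4.37%. The share was 3 of 12 for IGHA, while 20.2% of the IGH clonotypes with no constant region hit were nonproductive. A constant region was found for 86.9% of nonproductive and 96.7% of productive IGH clonotypes, and for 90.4% and 96.8% of TRB clonotypes.

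Many nonproductive sequences lay close to a productive one of the same library and chain. Of the 1809, 561 (31.0%) were 1 edit, a substitution, insertion or deletion, from a productive clonotype with more reads, as were 15.95% of productive clonotypes. The excess was in IGH (50.3% of nonproductive and 11.8% of productive clonotypes) and TRB (35.6% and 10.9%), and no excess was seen in IGK (36.8% and 39.0%), which held 186 of the 561, IGL (41.6% and 54.5%), TRA (6.02% and 9.34%), TRG (13.6% and 23.8%) or TRD (1 of 25 clonotypes and 9.55%). The median productive neighbour had 7 times the reads of its nonproductive clonotype. By length, 309 of the 561 were 1 base shorter than the neighbour, 199 were 1 base longer and 53 had the same length. Without these clonotypes the nonproductive share was 3.10% in IGH, 5.31% in TRB, 13.5% in IGK and 46.2% in IGL, and the median over libraries was 9.53%. Productive clonotypes with such a neighbour were kept, so no share could rise, and the falls do not measure errors. Whether the 561 are rearrangements of their own or copies of the neighbour with an error was not tested.

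Stops within the frame were few. Of the 90, 31 were in IGH, 26 in TRB, 18 in IGK, 13 in TRG and 1 each in TRA and TRD, with 0 in IGL. The stop was TAG in 38, TGA in 27 and TAA in 25. It lay within the aligned V in 31, within J in 28 and across the junction in 31.

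Sharing between libraries was as rare for nonproductive as for productive clonotypes over all chains, but not within each. The same CDR3, V and J were found in at least 2 libraries for 71 of 1677 distinct nonproductive clonotypes (4.23%) and 564 of 11673 productive ones (4.83%). For IGL it was 19 of 80 (23.8%) against 11 of 48 (22.9%) and for TRG 17 of 139 (12.2%) against 13 of 116 (11.2%). In IGK, however, 6.87% of the nonproductive and 29.5% of the productive clonotypes were shared, and in TRB 0.19% and 1.56%. None of the 190 nonproductive IGH clonotypes was found in another library, beside 14 of 2923 productive ones. Of the 19 distinct nonproductive clonotypes of recipient uninjected, 7 were shared with maternal uninjected (36.8%, and 1.23% of the 569 there), 4 with recipient DC-depleted pIUT (21.1%) and 2 with recipient DC control pIUT (10.5%). Of its 129 productive clonotypes, 31.0% were shared with maternal uninjected, 23.3% with recipient DC-depleted pIUT and 26.4% with recipient DC control pIUT. Among recipient libraries, 27 nonproductive clonotypes were shared by DC control pIUT and DC-depleted pIUT, 4.03% of the former's 670 and 7.30% of the latter's 370.

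Genes of the machinery that makes and removes such transcripts were read from the gene table in each library. Rag1 and Rag2, which encode the recombinase, were highest in recipient DC control pIUT at 54.1 and 33.2 CPM. Rag1 was at 12.2 CPM in recipient DC control mIUT and 10.4 in recipient DC-depleted pIUT. Among maternal cells it was at 5.52 CPM with DC control pIUT, 2.80 with DC-depleted pIUT and 0.29 with DC control mIUT, and it was listed at 0 in both uninjected libraries. Rag2 was at 13.2 CPM in recipient DC-depleted pIUT, 5.48 in maternal DC control mIUT, 3.75 in recipient DC control mIUT and 2.23 in maternal DC-depleted pIUT, and listed at 0 in both uninjected libraries and in maternal DC control pIUT. The uninjected libraries thus held nonproductive clonotypes at 13.03% and 12.8% with no Rag1 or Rag2 counts. Dntt, whose product adds bases at the junction without a template, was at 113 CPM in recipient DC control pIUT, 10.9 in recipient DC-depleted pIUT, 7.16 in maternal DC-depleted pIUT, 6.59 in maternal uninjected, 2.40 in recipient DC control mIUT and 0.23 in recipient uninjected, and listed at 0 in maternal DC control mIUT and pIUT. All 10 genes of the recombination list were above 3 counts in maternal DC-depleted pIUT and in the 3 recipient IUT libraries, and 5 to 8 of them in the other libraries.

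Upf1, the helicase of nonsense-mediated decay, was at 55.4 CPM in recipient DC-depleted pIUT, 48.4 in maternal uninjected, 40.6 in maternal DC control pIUT, 31.2 in recipient DC control pIUT, 13.3 in recipient DC control mIUT, 12.1 in maternal DC-depleted pIUT and 0.40 in maternal DC control mIUT, and it was listed at 0 in recipient uninjected. Of 10 decay genes, 10 were above 3 counts in 5 libraries, 9 in maternal DC control pIUT, 6 in maternal DC control mIUT and 5 in recipient uninjected.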

How the data were processed

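Total RNA of sorted cells was sequenced in 8 pooled libraries. The authors deposited 1 MiXCR table per library, run for random RNA fragments of mouse at default settings, with a clone count (reads assigned to a clonotype), a clone fraction (that count over the table's total) and a minimum CDR3 base quality score. The authors also deposited estimated counts per gene, built on GRCm39 by an nf-core workflow and not normalized, and 0 columns belonged to no sample. CPM here is an estimated count scaled to a library total of 1000000 (totals 38543494 to 47965158).

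The chain was read from the best V hit, and positions of segments came from a GENCODE annotation of GRCm39, matched by name for all 60 V segments described. Differences between classes were taken within a chain with at least 5 clonotypes of each class in a library. They were averaged to 1 value per library and tested by sign changes over at least 6 libraries, adjusted over 8 tests, which include the spread of length, given here without its p. By the sample labels each library has its own origin and treatment, so the libraries are not replicates. The p-values come from sign changes or exchanged labels over these unlike libraries and do not measure the variation between pups. The differences between classes in reads, length, spread and insertion were first tested on simulated data with known differences. The other comparisons were not simulated. Clonotypes were named as the largest of each library and chain and the 5 in most libraries, and V segments as the 5 highest and 5 lowest of those with at least 50 clonotypes. Rag1, Rag2, Dntt and Upf1 are given in every library. Alternatives changed the clone count minimum, merged lines, left out nonproductive 1-edit neighbours (productive ones were kept) or libraries, or kept some classes, chains or lengths. Members and lists were chosen with earlier results of these data known. Python 3.11.15, pandas 2.3.3 and scipy 1.17.1 were used.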

Additional observations from a re-analysis of the deposited data

Results flagged for a closer look

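The difference in the nonproductive share of clonotypes had opposite signs in maternal and recipient cells under 3 contrasts, each between single libraries. The gaps between them were not tested, and only the maternal difference from uninjected to DC control mIUT had an interval without 0. From uninjected to DC control mIUT the difference was 11.5 percentage points in maternal cells and -2.33 points in recipient cells, a gap of 13.8 points that rests on 49 maternal clonotypes. From uninjected to DC control pIUT the values were 2.60 and -0.39 points, a gap of 2.99 points, with 32 maternal clonotypes in DC control pIUT. The signs were alike within either receptor class, at -0.31 and -1.15 points with T cell chains alone and 6.75 and 0.54 with B cell chains alone. From DC control pIUT to DC-depleted pIUT they were -4.57 and 0.02 points, a gap of -4.60 points. The recipient value of the last contrast was -0.19 without the nonproductive clonotypes 1 edit from a larger productive one and -2.24 with T cell chains alone, which gave -1.76 in maternal cells. With B cell chains alone the signs stayed opposite, at -2.93 in maternal and 2.60 in recipient cells.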

How the results depend on the processing

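The lower read number and the wider length spread kept their direction under every alternative that gave a value, with log2 ratios of -2.56 to -0.62 for reads and 0.10 to 1.75 for spread. With chains ignored, reads gave -0.70 (adjusted p 0.0312 over 4 tests, 0.0625 over 8, so that the side of the threshold depends on the tests counted), and spread gave 0.58, which is a description because the reading frame that defines the classes bears on it. Leaving out 1 library at a time gave -1.08 to -0.62 for reads, 0.69 to 1.08 for spread, 0.38 to 0.92 bases for insertion, -0.37 to 0.50 bases for length and 1.17 to 5.65 points for maternal minus recipient. The length difference reversed with CDR3 of 21 to 90 bases (-0.34), with B cell chains alone (-0.67), with medians (-0.35) and without recipient DC control pIUT (-0.37), and insertion reversed with medians (-0.0188). The cause of these changes was not tested. Maternal minus recipient was -0.0481 points with stops alone, -0.0260 in libraries with at least 100 clonotypes and 5.65 without maternal DC-depleted pIUT. Paired by treatment it was 3.98 points (exact permutation p = 0.375). Stops alone, which are 90 clonotypes, gave median shares of 0.554% of clonotypes and 0.0806% of the clone count. Alternatives for comparisons of 2 libraries were chosen after seeing the data. With stops alone, maternal DC control mIUT differed by -0.951 points from maternal uninjected and by -0.501 from recipient DC control mIUT, and recipient IGK with DC depletion by -0.158. Maternal DC-depleted pIUT minus uninjected was 1.29 points without members 1 edit from a larger productive clonotype and 3.82 with B cell chains alone. Recipient DC-depleted minus DC control pIUT was -2.24 with T cell chains alone and 2.60 with B cell chains alone. Fewer than 6 libraries remained for reads, length and insertion under 2 alternatives each, so these gave no test. Maternal DC control mIUT and pIUT, with 49 and 32 clonotypes, cannot show differences of a few points.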
